A study of Homo sapiens with 101 samples.

Results

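MAP2K2 encodes MEK2, 1 of the pair of MEK kinases that phosphorylate the ERK kinases. The arrays described here come from SW620 cells, an established human colorectal cancer line grown from a lymph node metastasis, that carried a short hairpin RNA against MAP2K2. They were chosen by label: 6 SW620 arrays of the MAP2K2 knockdown were set against 6 SW620 arrays with a non-target hairpin and 6 with an empty vector. These 18 arrays are part of 50 SW620 arrays and of 101 arrays in all.

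The study placed hairpins against CDK5, HRAS, MAP2K1, MAP2K2, MAPK3 or NGFR in SW620 and in SW480, a line from the primary tumour of the same case. The genes that responded were meant as a check on a computed network of causal gene links. Total RNA was hybridised to Affymetrix arrays with 1 sample per array, and every value below is a log2 RMA level or a difference of such levels.

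The MAP2K2 knockdown has replicates 1 to 6, and the labels give it a single hairpin code, so no second hairpin to MAP2K2 stands beside it. The groups set against it in SW620 are the MAP2K1 knockdown with 6 arrays and the 5 knockdowns other than MAP2K2 with 29 as a set, of which CDK5 has 5 because it lacks replicate 1. In SW480 they are the MAP2K2 knockdown with 6 arrays and its vector controls with 12. Non-transduced SW620 cells, the only SW620 group without a vector, have 3 arrays, named replicates 1, 2 and 7. The sample names fall into rounds: replicate 1, replicate 2 and replicates 3 to 6 differ in naming style, and knockdown and controls were compared within these 3 rounds. The labels call the arrays biological replicates and end the names of replicates 3 to 6 in A1, A2, B1 and B2, but do not describe the cultures behind them. P-values measure the spread of all arrays in a fit around its group and round terms, with each array counted as independent. The time from transduction to harvest is not given in the sources used here.

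In the RAS to ERK pathway, growth factor receptors load RAS proteins with GTP, RAS recruits RAF kinases, RAF phosphorylates both MEK kinases, and the MEK kinases phosphorylate ERK. Active ERK switches on immediate early transcription factors and also the DUSP, SPRY and SPRED genes that dampen the pathway. In colorectal cancer cells the pathway is known for sustaining proliferation and for feeding its own growth factor ligands.

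The knockdown arrays were compared with the controls in line identity and RNA quality. Array medians lay between 5.06 and 5.2 in the knockdown and between 5.08 and 5.22 in the vector controls. The GAPDH 3 prime minus 5 prime difference, which grows with RNA degradation, lay between 0.22 and 0.55 in the knockdown, against 0.056 to 0.4 in the vector controls. It was above both controls in replicate 1 (0.22 against 0.1 and 0.12) and in replicate 2 (0.55 against 0.056 and 0.14). The mean level of the 20 genes highest in SW620 over SW480 vector controls was 8.58 to 9.34 in the knockdown, against 8.61 to 10 in its controls, while that of the 20 highest in SW480 was 4.03 to 4.29 in the knockdown and 4.16 to 4.4 in the controls. Within replicates 3 to 6 the SW620 genes averaged 9.26 to 9.34 in the knockdown, below the 9.88 to 10 of the controls. Colon epithelial markers averaged 7.76 to 8.38 in the knockdown, against 8.17 to 8.49 in the controls. CDH17, KRT20 and VIL1 fell among these 11 markers. Leukocyte markers averaged 4.53 to 5.54 in the knockdown and 4.65 to 5.65 in the controls, endothelial markers 4.78 to 5.48 and 4.91 to 5.6, and fibroblast markers 5.36 to 5.96 and 5.49 to 5.93, in the same order. Among other SW620 groups, 3 arrays stood apart by a GAPDH difference above 2: MAP2K1 knockdown replicate 2 at 6.04, NGFR knockdown replicate 1 at 3.82 and MAPK3 knockdown replicate 2 at 2.95. These 3 arrays share the estimate of spread and enter the comparisons with other knockdowns. For these comparisons, counts over all genes are given with and without them, and counts of list and histone members only with them.

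In SW480 the library labelled MAP2K2 knockdown replicate 1 went against its line label. Its mean was 8.02 over the 20 SW620 genes and 5.62 over the 20 SW480 genes, where the other 5 arrays of that group lay at 4.33 to 4.84 and at 8.68 to 9.53. The SW480 vector controls lay at 4.36 to 4.51 and at 8.49 to 9.85 on the same measures. Replicate 1 of the SW480 knockdowns of MAPK3 (6.72 and 5.98), MAP2K1 (6.51 and 7.35) and CDK5 (5.27 and 8.46) lay in between, and these 3 libraries enter the line comparison through the shared round term and spread. The comparisons with SW480 are therefore also given without the library labelled MAP2K2 knockdown replicate 1, a choice made after seeing the data. No comparison within SW620 uses these libraries.

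MAP2K2 itself was lower on all 6 knockdown arrays than on every vector control. On probe set 202424_at, the brightest for the gene, its level was 6.77, 7.31, 7.13, 7.16, 7.11 and 7.19 in knockdown replicates 1 to 6. In the same order it was 9.74, 9.44, 8.55, 8.61, 8.61 and 8.51 with the non-target hairpin, and 9.81, 9.42, 8.75, 8.72, 8.76 and 8.66 with the empty vector. The groups did not overlap, and the knockdown arrays lay close together while the controls of replicates 1 and 2 stood above those of replicates 3 to 6. MAP2K2 fell by 1.85 ± 0.44 on the log2 scale (SE, limma over 54675 probe sets, adjusted p = 0.00212), to 27.7% of the vector controls. By round the difference was -3.01, -2.12 and -1.5, which leaves 12.5%, 23% and 35.4%. Each array measured RNA from many cells, in which fewer cells with a transcript and less of it per cell cannot be told apart.

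Probe set 213490_s_at gave a like picture, with a fall of 1.62 ± 0.29 (limma, adjusted p = 0.000107) to 32.4% of the controls. Probe set 213487_at stayed dim on every array, at 4.59 to 5.09 in the knockdown and 4.39 to 5.17 in the vector controls, and its difference was -0.01 ± 0.093 (limma, adjusted p = 0.959). Non-transduced cells had 9.41, 9.46 and 8.1 on 202424_at, all above the knockdown, with replicate 7 below the lowest vector control.

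**Figure D1:**
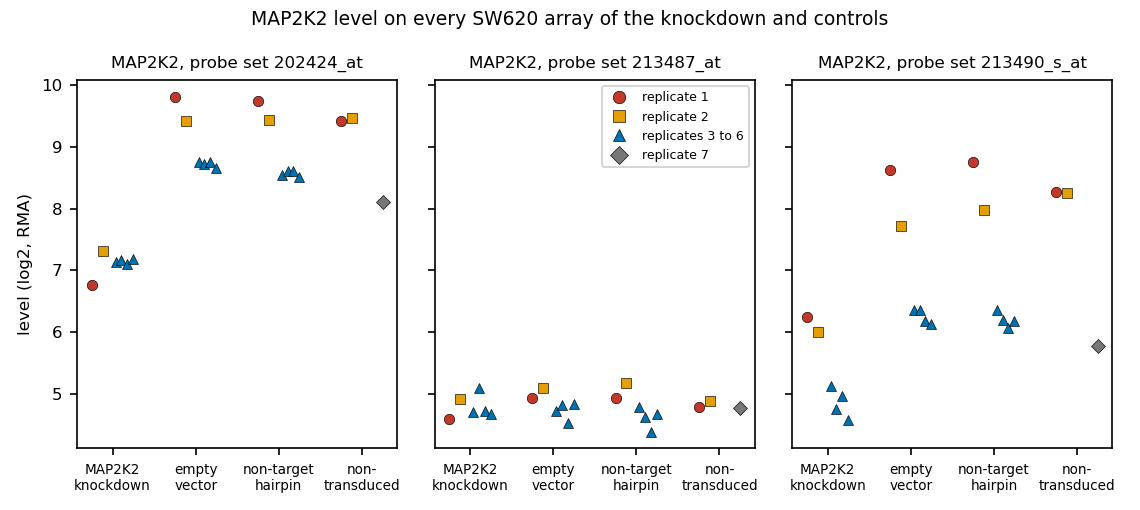
MAP2K2 level (log2, RMA) on each SW620 array of the MAP2K2 knockdown, the empty vector, the non-target hairpin and the non-transduced cells, 1 panel per MAP2K2 probe set, with colour and shape marking the replicate or round. On 202424_at the 6 knockdown arrays sit between 6.77 and 7.31, below all 12 vector control arrays, which sit between 8.51 and 9.81.

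Over all genes, 4021 of 19775 passed an adjusted limma p of 0.05 between the knockdown and the vector controls, 20.3% of those tested. Of these 1701 were higher, 8.6% of the genes tested, and 2320 were lower, 11.7%. Counts of list members given below are to be read beside these shares. After a second quantile normalization 3756 genes passed, 1893 higher and 1863 lower, so 50.4% of the calls were higher there, against 42.3% on the deposited values. A change of at least 2-fold was seen for 45 of the higher and 234 of the lower genes, 1.41% of the genes tested. The median difference of all genes was 0.00112. Of the called genes, 2163 had the same sign in all 3 rounds, 1466 had the opposite sign in replicate 1 and 552 in replicate 2. All 6 knockdown arrays lay beyond every vector control of their round for 1286 of the called genes. Over all genes, this was so for 760 above the controls, 3.84%, and 942 below them, 4.76%.

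The calls depend on counting replicates 3 to 6 as separate arrays, although their spread is small beside that between rounds. Over genes, the median SD of the knockdown was 0.0904 among replicates 3 to 6 and 0.26 over the 3 rounds. When replicates 3 to 6 were averaged to 1 array per group, so that the rounds are the replicates, limma called 0 genes, with 1458 at an unadjusted p under 0.05. Without the 3 arrays of degraded RNA, a choice made after seeing the data, the same averaging called 54 genes, with 3186 unadjusted. MAP2K2 was among them at -2.21 (limma, adjusted p = 0.000114), as were H2AC17 at 1.13 (limma, adjusted p = 0.0438), HBEGF at -1.04 (limma, adjusted p = 0.00349) and IFI27 at 0.37 (limma, adjusted p = 0.049). The vector controls differed from each other in 1 gene, TULP3, 0.00506% of the genes tested, with 454 at an unadjusted p under 0.05 in limma.

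The number of calls differed with the control used, and so did the number of arrays on the control side. Set against non-transduced cells in place of the vector controls, a choice made after seeing the data, the knockdown differed in 80 genes, 47 higher and 33 lower, with 2338 at an unadjusted p under 0.05 in limma. Of these, 30 were also among the 4021. MAP2K2 was -2.18 ± 0.73 in that comparison (limma, adjusted p = 0.186). Non-transduced and knockdown arrays share only replicates 1 and 2, so this fit has little data in common rounds. Non-transduced replicate 7 is the only SW620 array of its round, so the round term takes it up and it carries no weight here. Fewer control arrays and a different control cannot be told apart as sources of the smaller count. The values of non-transduced cells are given beside the vector controls below; differences of knockdown and of non-transduced cells from the vector controls share those controls, and the cause of the difference between the control groups was not tested.

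The largest falls that kept their sign in all 3 rounds were INHBE, DDIT4, IGFBP1, IL20RB, ASNS, VEGFA, ERRFI1, TRIB3, GDF15, LETM2, C5 and LRATD2. The largest such rises were SYTL2, KIF20A, H2BC12L, DLEU2, H2AC17, TNC, CDC20, ERCC6L, LIX1, ZNF519, H2BC12 and DEF8. Of these 24 genes, 23 had all 6 knockdown arrays beyond every vector control of their round, and SYTL2 had 5.

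**Figure D2:**
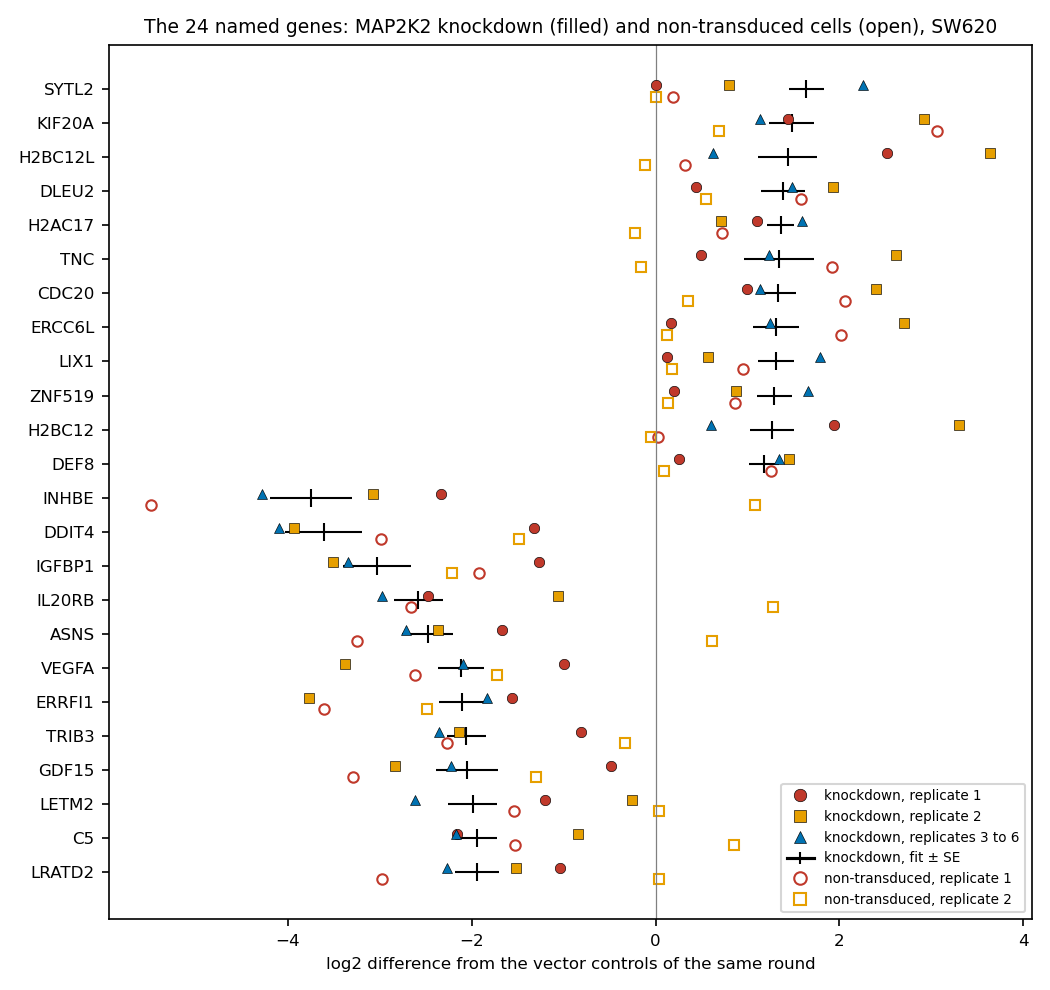
Log2 difference from the mean vector control of the same round for the 24 genes with the largest changes, in the MAP2K2 knockdown (filled marks, 1 per round) and in non-transduced cells (open marks, replicates 1 and 2), with the fitted knockdown difference and its SE as a tick and bar. INHBE has the lowest fitted value at -3.75 and SYTL2 the highest at 1.64; open marks of replicate 1 lie on the side of the knockdown marks for genes such as ASNS (-3.25) and KIF20A (3.06), while those of replicate 2 lie at 0.61 and 0.69.

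DDIT4, an inhibitor of mTORC1 that stress induces, had 10.19, 8.3, 7.57, 7.49, 7.7 and 7.68 in knockdown replicates 1 to 6. The vector controls lay between 11.15 and 12.37, with a median of 11.88, and did not overlap the knockdown. DDIT4 fell by 3.61 ± 0.42 (limma, adjusted p = 4.11e-08), and replicate 1 moved least, by -1.32. Non-transduced cells had 8.52, 10.74 and 10.42, between the knockdown and the vector controls in replicate 2 and below the knockdown in replicate 1.

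INHBE, which encodes an inhibin beta chain, had 4.1 at the lowest, 4.96 at the median and 7.11 at the highest in the knockdown, against 7.05, 9.07 and 9.76 in the vector controls. Within each round the arrays did not overlap, and INHBE fell by 3.75 ± 0.45 (limma, adjusted p = 7.92e-08). IGFBP1, which binds insulin-like growth factors, ranged from 3.83 to 4.32 in the knockdown and from 4.61 to 7.71 in the vector controls. It fell by 3.03 ± 0.37. GDF15, a stress-induced ligand of the TGF-beta superfamily, fell by 2.05, but by only 0.49 in replicate 1, where it stood at 10.86 against 11.45 with the non-target hairpin and 11.27 with the empty vector. VEGFA, the main angiogenic growth factor, ranged from 7.54 to 9.12 in the knockdown, against 9.57 to 11.04 in the vector controls, and fell by 2.12 ± 0.25. It was 7.51, 9.2 and 9.85 in non-transduced cells.

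Genes of the ATF4 amino acid response fell together. ATF4 is the transcription factor that, when translation initiation is restrained or amino acids run short, raises genes for amino acid synthesis, uptake and tRNA charging. Of 24 measured members, 20 fell and ATF5 alone rose. The median difference of the list was -1.04, against 0.00112 for all genes, and by round it was -0.71, -1.06 and -1.1. The fall was shared by serine synthesis enzymes, tRNA synthetases, a cystine transporter and ATF4 itself.

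ASNS, which makes asparagine, had 10.06, 8.26, 9.65, 9.64, 9.73 and 9.66 in knockdown replicates 1 to 6. The vector controls lay at 10.6 to 12.47 with a median of 12.34, above all knockdown arrays. ASNS fell by 2.48 ± 0.28 (limma, adjusted p = 3.29e-08). TRIB3, a pseudokinase that ATF4 induces, ranged from 9.22 to 10.97 in the knockdown and from 11.43 to 12 in the vector controls, and fell by 2.06 ± 0.21. Among the serine pathway enzymes PHGDH changed by -1.52, PSAT1 by -1.16 and PSPH by -1.01. The tRNA synthetases SARS1 (-1.07), GARS1 (-0.95), WARS1 (-0.72) and CARS1 (-0.49) all fell, while SLC7A11, the cystine transporter, fell by 1.49, with -0.2 in replicate 1. CHAC1, which degrades glutathione, fell by 1.53 ± 0.25, with -1.52, -1.75 and -1.47 in the rounds. DDIT3 fell by 0.85, and ATF4 itself fell by 0.65 ± 0.13 (limma, adjusted p = 0.000177). ATF5, a paralog of ATF4, rose by 0.39 in the fit, with values of -0.3 and 0.0016 in replicates 1 and 2.

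Non-transduced cells were low in these genes in replicate 1 but not in replicate 2. Their median difference from the vector controls over the list was -1.51 in replicate 1 and 0.11 in replicate 2. For ASNS the level was 8.48 in replicate 1, below the knockdown at 10.06, and 11.23 in replicate 2, above the knockdown at 8.26. With non-transduced cells as control the list's median was -0.33, and limma called 0 of its members. ASNS then stood at -0.89 and DDIT4 at -1.35, without passing the test.

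A known ATF4 site is the C/EBP-ATF response element. Its core TGATGNAA was searched on both strands in the 250 bases before the start of each gene (RefSeq promoters, GRCh38.p14). It occurs in 2.38% of 21490 such windows and in 3.19% of 15384 genes. Of the 24 list members 21 matched a window and 4 held the motif: AARS1, which was not called, ASNS, CHAC1 and GARS1. Among the called members with a window, 3 of 17 held it, or 17.6%. The windows of ASNS (chr7:97872409-97872658, minus strand, 1 of 2 listed starts) and CHAC1 (chr15:40953221-40953470, plus strand) are shown because they carry the motif in genes that fell in all 3 rounds. Capitals mark the match, which lies 68 bases before the start in ASNS and, on the other strand, 209 bases before it in CHAC1.
ASNS: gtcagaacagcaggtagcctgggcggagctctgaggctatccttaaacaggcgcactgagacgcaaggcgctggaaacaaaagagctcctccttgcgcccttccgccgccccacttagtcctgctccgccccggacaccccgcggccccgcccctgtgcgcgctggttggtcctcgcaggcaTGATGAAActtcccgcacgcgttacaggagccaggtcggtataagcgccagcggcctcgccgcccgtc
CHAC1: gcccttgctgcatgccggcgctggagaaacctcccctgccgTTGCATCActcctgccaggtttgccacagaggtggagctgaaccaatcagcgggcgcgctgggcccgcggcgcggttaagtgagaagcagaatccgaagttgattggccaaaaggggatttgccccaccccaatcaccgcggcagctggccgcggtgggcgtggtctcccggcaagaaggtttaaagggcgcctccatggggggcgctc
A match is a description of these letters in this window.

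Genes of the unfolded protein response moved in part with the ATF4 list. Of 21 measured, 8 fell and 2 rose, with a median of -0.13. ERN1, the sensor IRE1, fell by 1.51 ± 0.18 (limma, adjusted p = 8.73e-08), and XBP1, the transcription factor whose mRNA IRE1 splices, fell by 1.05. HERPUD1, a factor of ER-associated degradation, fell by 0.9, and DNAJB9 by 1.03, with -2.74 in replicate 2. The chaperone partners CRELD2 (0.55) and DNAJB11 (0.38) rose, although both were below the controls in replicate 1.

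Genes of G2 and mitosis rose. Of 26 measured, 24 rose and the other two did not pass the test, with a median of 0.96, against 0.00112 for all genes. By round the median was 0.24, 2.39 and 0.77, so replicate 2 lay far above the other rounds. KIF20A, a kinesin of cytokinesis, had 7.06, 8.35, 9.76, 9.74, 9.67 and 9.73 in knockdown replicates 1 to 6. With the non-target hairpin it had 5.93, 5.38, 8.68, 8.6, 8.65 and 8.64, and with the empty vector 5.32, 5.49, 8.52, 8.52, 8.54 and 8.55. Every knockdown array stood above the controls of its round, while the level of all groups differed by round. KIF20A rose by 1.48 ± 0.24 (limma, adjusted p = 1.85e-05).

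CDC20, the activator of the anaphase-promoting complex, ranged from 9.15 to 10.75 in the knockdown, with a median of 10.63, against 7.55 to 9.57 and a median of 9.52 in the vector controls. It rose by 1.33 ± 0.2 (limma, adjusted p = 5.69e-06), with 1, 2.4 and 1.14 in the rounds. UBE2C, the E2 enzyme of that complex, rose by 0.98 ± 0.16, and CDC25C, the phosphatase that activates CDK1, by 0.8 ± 0.13. FOXM1, a transcription factor of the mitotic programme, rose by 1.18 in the fit but stood at -0.73 in replicate 1. MKI67, the proliferation antigen, rose by 1.17, with 0.18, 2.68 and 1.04 in the rounds. ERCC6L, a helicase of mitotic chromosomes outside the list, rose by 1.31.

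The G1/S and DNA replication list moved against itself between rounds. Of 26 measured, 13 rose with a median of 0.65, and the list's median by round was -1.26, 1.84 and 0.88. TYMS, thymidylate synthase, had 8.15 in knockdown replicate 1, against 10.3 with the non-target hairpin and 9.92 with the empty vector. In replicate 2 it had 11.52 in the knockdown, against 9.09 and 8.77, and in replicates 3 to 6 the knockdown lay at 11.9 to 12 against 10.5 to 10.65. TYMS rose by 1.01 ± 0.29 in the fit (limma, adjusted p = 0.0108), with all arrays but replicate 1 above their controls. MCM3, a subunit of the replicative helicase, and CCNE2, a cyclin of S phase entry, showed the same order, with -1.14 and -1.67 in replicate 1 and 1.59 and 2.76 in replicate 2.

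Without knockdown replicate 1, 24 of the 26 G1/S genes rose. Without knockdown replicate 2, 5 did, and without replicate 3, 4, 5 or 6 in all groups, 1 did. The G2 and mitosis count was 25 without knockdown replicate 1, 17 without knockdown replicate 2 and 15 to 17 without any of replicates 3 to 6. Non-transduced cells also lay above the vector controls in these lists, with a median of 1.95 in replicate 1 and 0.54 in replicate 2 for G2 and mitosis, and 1.03 and 0.25 for G1/S. With non-transduced cells as control the medians were 0.066 and -0.023, and limma called 0 members of either list.

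Many mitotic promoters carry a CCAAT box and a cell cycle homology region. Here CCAAT and TTTGAA were searched on both strands of the same 250-base windows. CCAAT occurs in 32.4% of windows and 39.7% of genes, and TTTGAA in 10.9% and 13.9%. Of the 26 measured genes of G2 and mitosis, 20 matched a window, 18 of them with CCAAT and 10 with TTTGAA. Among the called members with a window, 16 of 18 held CCAAT, or 88.9%, and 9 of 18 held TTTGAA, or 50%. CDC20 (chr1:43358731-43358980, plus strand) is shown because it carries both, and KIF20A (chr5:138178862-138179111, plus strand) because it rose most in the list and holds CCAAT alone. Capitals mark both motifs on either strand.
CDC20: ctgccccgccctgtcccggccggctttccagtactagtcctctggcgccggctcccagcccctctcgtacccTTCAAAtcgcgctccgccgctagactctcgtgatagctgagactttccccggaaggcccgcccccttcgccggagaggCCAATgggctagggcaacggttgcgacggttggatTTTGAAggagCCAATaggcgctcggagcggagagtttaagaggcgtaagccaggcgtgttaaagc
KIF20A: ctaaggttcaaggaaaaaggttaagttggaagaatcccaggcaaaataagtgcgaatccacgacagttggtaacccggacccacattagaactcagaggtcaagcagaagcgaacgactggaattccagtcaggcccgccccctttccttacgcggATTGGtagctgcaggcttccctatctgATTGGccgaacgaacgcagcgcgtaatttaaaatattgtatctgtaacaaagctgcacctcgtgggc

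**Figure D3:**
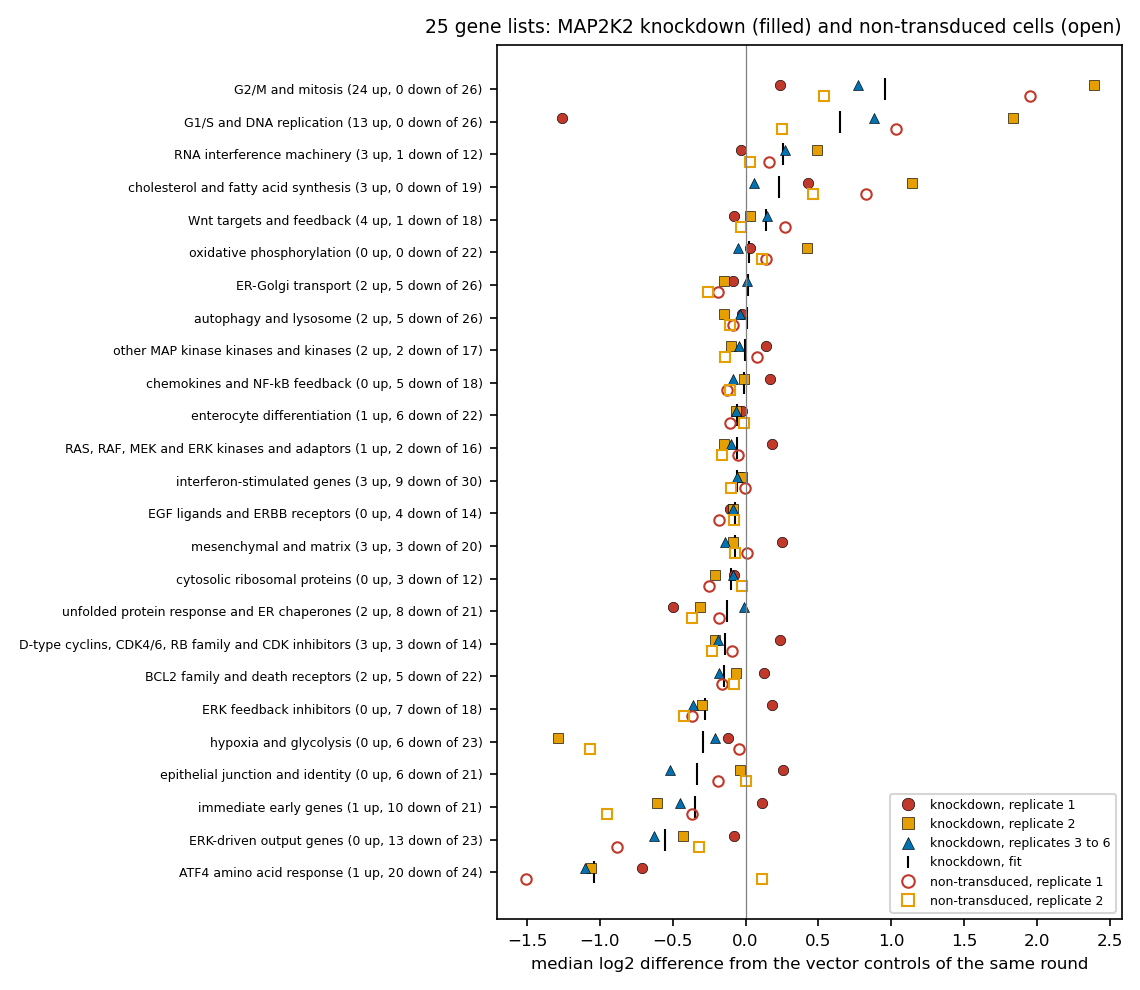
Median log2 difference from the vector controls of the same round for each of 25 gene lists, in the MAP2K2 knockdown (filled marks by round, bar for the fit) and in non-transduced cells (open marks), with the number of members called higher and lower. The ATF4 list lies lowest at -1.04 and the G2 and mitosis list highest at 0.96; for G1/S and DNA replication, replicate 1 lies at -1.26 and replicate 2 at 1.84.

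Kinases and adaptors of the RAS to ERK pathway changed little beyond MAP2K2. Of 16 measured, 2 fell (MAP2K2 and SOS2) and 1 rose (PEBP1), which is 12.5% and 6.25%, against 11.7% and 8.6% of all genes. The 12.5% counts MAP2K2, the target of the hairpin, so it overstates the falls beyond the target. MAP2K1, the gene of the other MEK kinase, had 10, 9.61, 9.75, 9.8, 9.79 and 9.78 in knockdown replicates 1 to 6. The vector controls lay between 9.54 and 10.1, and the difference was -0.13 ± 0.15 (limma, adjusted p = 0.575). MAPK3, which encodes ERK1, differed by 0.074 (limma, adjusted p = 0.566). HRAS stood below its controls in replicate 1, at -1.37, and above them in replicate 2 (0.87) and in replicates 3 to 6 (0.91), with a fitted difference of 0.52 (limma, adjusted p = 0.279).

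PEBP1, the RAF kinase inhibitor protein, ranged from 11.08 to 11.6 in the knockdown and from 10.55 to 10.87 in the vector controls, with no overlap. It rose by 0.61 ± 0.098 (limma, adjusted p = 1.03e-05), with 0.6, 0.83 and 0.57 in the rounds. Non-transduced cells had 11.54, 10.83 and 10.9. SOS2, an exchange factor that loads RAS with GTP, fell by 0.56 ± 0.094, with all 6 arrays below the controls of their round, and non-transduced cells lay at -0.95 and -0.6 from the vector controls. The RAS genes RRAS (-0.45), RRAS2 (-0.023) and MRAS (-0.093), the adaptors GRB2 (0.019) and SHC1 (-0.36), the exchange factor SOS1 (-0.3) and the kinases ARAF (-0.042) and KSR1 (0.14) did not pass the test. Neither did the scaffold LAMTOR3 (0.13) or NF1 (-0.072), which speeds GTP hydrolysis by RAS.

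Of 17 measured genes of other MAP kinase cascades, 2 rose and 2 fell, 11.8% each, near the shares of all genes (8.6% and 11.7%). MAP3K3 (0.62) and MAPK7, which encodes ERK5 (0.36), rose. MAP2K5, which encodes the kinase that phosphorylates ERK5, fell by 0.45 ± 0.084, its knockdown arrays at 6.74 to 6.96 and its vector controls at 7.1 to 7.47. MAP3K8, a MEK kinase also called TPL2, fell by 0.62, with the opposite sign in replicate 1 (0.42).

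The list of ERK feedback inhibitors fell in part, where the name stands for the set and not for a tested role of each member. Of 18 measured, 7 fell, with a median of -0.28 that by round was 0.18, -0.3 and -0.36. ERRFI1, which inhibits the EGF receptor, had the largest change, -2.11 ± 0.25, with 8.19 to 9.79 in the knockdown and 10.67 to 12.08 in the vector controls. IER3 changed by -0.92, DUSP1 by -0.64, DUSP16 by -0.6, DUSP6 by -0.58, SPRED1 by -0.43 and SPRY1 by -0.27. DUSP6, the phosphatase most specific for ERK, had 11.14 in knockdown replicate 1, above the 10.73 with the non-target hairpin and 10.4 with the empty vector. It was 8.95 in replicate 2, against 9.66 and 9.72, and 10.36 to 10.53 in replicates 3 to 6, against 11.26 to 11.37. DUSP4 (-0.37), DUSP5 (-0.58), SPRY2 (-0.25) and SPRY4 (-0.021), also feedback genes of ERK, did not pass the test.

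Genes used as readouts of ERK activity fell in 13 of 23 cases, with a median of -0.55, and by round the median was -0.081, -0.43 and -0.63. EMP1, a membrane protein, ranged from 6.08 to 6.92 in the knockdown and from 6.42 to 9.26 in the vector controls, which overlapped across rounds but not within one, and fell by 1.9 ± 0.23 (limma, adjusted p = 1e-07). LIF, a cytokine of the IL6 family, fell by 0.96 ± 0.098 (limma, adjusted p = 3.59e-09), with -0.26 in replicate 1. EPHA4, an ephrin receptor, fell by 1.3, and PLAU, the urokinase protease, by 1.16. Its receptor PLAUR fell by 1.19 in the fit but stood at 1.08 in replicate 1, as did PHLDA1 with 1.51 there. CXCL8, the neutrophil chemokine, had 6.25, 5.98, 7, 6.89, 6.39 and 6.9 in knockdown replicates 1 to 6, against 7.17 to 8.35 in the vector controls. It fell by 1.3 ± 0.22, and non-transduced cells had 5.29, 5.56 and 8.18.

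Of 21 immediate early genes, 10 fell and 1 rose, with a median of -0.35. ATF3, a stress-induced transcription factor, fell by 1.9 ± 0.22, with 5.58 to 7.23 in the knockdown and 7.54 to 9.28 in the vector controls. KLF4 fell by 1.21 and EGR3 by 0.96, and EGR1, the textbook ERK target, by 0.75 (limma, adjusted p = 0.0223). JUN (-0.41), JUNB (-0.32) and IER2 (-0.56) fell in the fit, with 0.61, 0.53 and 0.27 in replicate 1. NR4A3, an orphan nuclear receptor, rose by 0.31.

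Ligands of the EGF receptor family fell in 3 cases and 1 receptor fell with them, among 14 genes of the list. HBEGF, a ligand that ERK itself induces, had 6.72, 6.55, 6.59, 6.74, 6.75 and 6.67 in knockdown replicates 1 to 6. With the non-target hairpin it had 7.5, 7.27, 7.63, 7.49, 7.56 and 7.54, and with the empty vector 8.22, 7.62, 7.91, 7.86, 8.01 and 8.07. The knockdown arrays stood close together and below every control. HBEGF fell by 1.05 ± 0.083 (limma, adjusted p = 4.72e-12), and by round the difference was -1.14, -0.9 and -1.07. Non-transduced cells had 6.19 and 6.37, below the knockdown, and 6.59, within its range. TGFA (-0.74) and BTC (-0.33), also ligands, fell. ERBB3, a receptor that lacks strong kinase activity of its own, fell by 1.14 in the fit but stood at 0.78 in replicate 1. EGFR (-0.00059) and ERBB2 (0.015) did not pass the test, nor did EREG (-0.51).

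Measured against non-transduced cells, no fall was seen in these pathway lists as a whole. The median of the ERK readouts was 0.044 and that of the feedback inhibitors 0.12, while the immediate early genes stood at 0.42 and the EGF ligands and receptors at 0.042. In limma 1 readout was higher and 1 feedback inhibitor lower. Against the vector controls, non-transduced cells themselves lay at -0.88 and -0.32 (replicates 1 and 2) over the readouts, -0.37 and -0.42 over the feedback inhibitors and -0.37 and -0.95 over the immediate early genes.

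Among cell cycle regulators of G1, 3 of 14 rose and 3 fell, 21.4% each, against 8.6% and 11.7% of all genes. CDK6, a kinase of G1, rose by 0.46, as did CCND3, its cyclin partner, by 0.46 and RBL1, a pocket protein of the RB family, by 0.44. CDKN2B (-0.94) and CDKN1A (-0.47), which encode CDK inhibitors, fell in the fit but stood at 1.54 and 0.88 in replicate 1. RBL2, another RB relative, fell by 0.61. CCND1, the cyclin that ERK signalling is known to raise, differed by -0.28 (limma, adjusted p = 0.451).

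Epithelial and differentiation genes fell in some members. Of 21 genes of epithelial junctions 6 fell, 28.6% against 11.7% of all genes. The list's median was -0.33, and by round it was 0.26, -0.038 and -0.52. CDH1, E-cadherin, had 9.85 in knockdown replicate 1, against 8.21 with the non-target hairpin and 8.96 with the empty vector. It had 7.95 in replicate 2, against 8.66 and 9.05, and 6.6 to 6.92 in replicates 3 to 6, against 9.55 to 9.78. CDH1 thus rested on replicates 2 to 6 for its fall of 1.86 ± 0.32 (limma, adjusted p = 2.97e-05). CLDN1, a claudin of tight junctions, fell by 1.18 ± 0.21 with -1.6, -0.74 and -1.19 in the rounds, and OCLN, occludin, by 0.7. ESRP1 (-1.23), CLDN7 (-1.18) and EHF (-0.94) fell in the fit with a rise in at least 1 round.

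Of 22 enterocyte genes 6 fell, 27.3% against 11.7% of all genes, and CA2, carbonic anhydrase, rose by 1.1. TFF3, a trefoil peptide of goblet cells, ranged from 8.17 to 8.99 in the knockdown and from 9.52 to 10.54 in the vector controls, and fell by 1.28 ± 0.18. Non-transduced cells had 9.12, 9.12 and 9.57. Of 20 mesenchymal and matrix genes, TNC, THBS1 and FN1, all secreted matrix proteins, rose and TWIST2, AXL and ITGB1 fell. That is 15% each way, against 8.6% higher and 11.7% lower of all genes. TNC had 5.86, 9.44, 10.58, 10.57, 10.43 and 10.54 in knockdown replicates 1 to 6, against 5.39, 6.6, 9.05, 9.05, 9.09 and 9.05 with the non-target hairpin and 5.35, 7.05, 9.59, 9.52, 9.54 and 9.53 with the empty vector. It rose by 1.34 ± 0.38, and the call was lost with the empty vector alone as control.

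Of 18 Wnt targets and feedback genes, SP5, PROX1, RNF43 and LEF1 rose and CD44 fell. That is 22.2% higher and 5.56% lower, against 8.6% and 11.7% of all genes. CD44, an adhesion receptor, stood at 0.055, 0.17 and -1.54 in the rounds, so its call rested on replicates 3 to 6. LEF1, a transcription factor of the Wnt pathway, stood at -0.56 in replicate 1, and SP5 at -0.004 in replicate 2. Of 18 chemokines and NF-kB genes, 5 fell (27.8%). CCL20 and CXCL6 changed by -1.18 and -1.12 in the fit, with 0.14 and -0.23 in replicate 1 and 0.015 and 0.8 in replicate 2. Of 30 interferon-stimulated genes 9 fell (30%) and 3 rose (10%), with a median of -0.061. OAS1, an RNA sensor enzyme, fell by 1.09, with 0.01 in replicate 1 and -1.56 in replicates 3 to 6. IFI27 rose by 0.35 ± 0.076, with 4.77 to 5.15 in the knockdown and 4.31 to 4.96 in the vector controls, so the groups overlapped.

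Of 22 genes of the BCL2 family and death receptors 5 fell (22.7%) and 2 rose (9.09%), against 11.7% and 8.6% of all genes. BCL2L11, which encodes the death activator BIM that ERK is known to restrain, rose by 0.39 ± 0.11, with 0.93, 0.34 and 0.27 in the rounds. MCL1, an anti-apoptotic member, changed by -0.46 and TNFRSF10B, a TRAIL receptor, by -0.83. Of 23 hypoxia and glycolysis genes 6 fell (26.1%), VEGFA the most, and the list's median was -0.12, -1.29 and -0.21 by round. EGLN3, an oxygen-sensing hydroxylase, stood at -2.34 in replicate 2 and -0.27 in replicates 3 to 6, and non-transduced cells stood at -2.42 in replicate 2.

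Cholesterol and fatty acid synthesis held 3 rises among 19 (15.8%), ACAT2, IDI1 and LSS. Autophagy and lysosome genes fell in 5 and rose in 2 of 26, and ER-Golgi transport genes did likewise, again of 26. These are shares of 19.2% lower and 7.69% higher, against 11.7% and 8.6% of all genes. Cytosolic ribosomal protein genes fell in 3 of 12 (25%), by at most 0.21. Limma called 0 of 22 oxidative phosphorylation genes, with 2 at an unadjusted p under 0.05, and their median was 0.026. Of 12 genes of the RNA interference machinery, which a hairpin uses, DICER1 (0.54), AGO2 (0.49) and AGO3 (0.41) rose and AGO4 (-0.56) fell.

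The MAP2K1 knockdown, aimed at the other MEK kinase, was compared directly with the MAP2K2 knockdown. Limma called 142 of 19775 genes between them, 0.718%, with 34 higher (0.172%) and 108 lower (0.546%) in the MAP2K2 knockdown and 21 at least 2-fold apart (0.106%). The lists of G2 and mitosis, G1/S, ATF4, ERK readouts, feedback inhibitors and immediate early genes held 0 calls each, with 0, 0, 3, 4, 3 and 4 members at an unadjusted p under 0.05. Their medians lay between -0.12 and 0.084. These list counts include the 3 arrays of degraded RNA and were not made without them. The same fit did not call MAP2K2 either, so 0 calls cannot show that the lists are alike in the 2 knockdowns. Without the 3 arrays of degraded RNA 642 genes were called against the MAP2K1 knockdown and 1613 against the 5 other knockdowns described next, and no named call was lost. MAP2K2 itself differed by -1.13 (limma, adjusted p = 0.354), and the degraded array, MAP2K1 knockdown replicate 2, read 4.88 for MAP2K2, where the MAP2K1 knockdown had 9.65 in replicate 1 and 8.74 ± 0.07 in replicates 3 to 6 (SD, n = 4).

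Lower in the MAP2K2 than in the MAP2K1 knockdown were TSPAN8, DACH1, AMIGO2 and SESN3. AMIGO2, an adhesion protein, had 6.73, 8.73 and 9.71 ± 0.08 in replicate 1, replicate 2 and replicates 3 to 6 (SD, n = 4) of the MAP2K2 knockdown. It had 10.47, 10.33 and 10.42 ± 0.038 in the MAP2K1 knockdown, and the difference was -1.37 (limma, adjusted p = 0.000992). Replicate 2 of the MAP2K1 knockdown is the array of degraded RNA. The vector controls lay between 10.07 and 11.21 for AMIGO2, above every MAP2K2 knockdown array, and in replicates 3 to 6 they averaged 10.87 with the non-target hairpin and 11.16 with the empty vector, also above the MAP2K1 knockdown. TSPAN8, a tetraspanin, stood at 6.32, 6.84 and 7.01 in the MAP2K2 knockdown and at 9.31, 8.55 and 8.2 in the MAP2K1 knockdown. With the empty vector and the non-target hairpin TSPAN8 had 6.32 and 6.35 in replicate 1 and 7.01 and 6.97 in replicate 2, near the MAP2K2 knockdown. In replicates 3 to 6 these controls averaged 7.84 and 8.39, above it. SESN3, a sestrin that restrains mTORC1, differed by -1.25 (limma, adjusted p = 0.00754) and DACH1, a transcription factor, by -1.39 (limma, adjusted p = 0.00196). In replicates 3 to 6 DACH1 averaged 7.46 in the MAP2K2 knockdown and 8.6 in the MAP2K1 knockdown. The empty vector and non-target hairpin averaged 7.31 and 7.22, no higher than the MAP2K2 knockdown. DACH1 lay below these controls in replicate 1 (3.62 against 6.24 and 5.62) and above them in replicate 2 (5.05 against 4.58 and 4.64). The calls of TSPAN8 and SESN3 were lost without any of replicates 3 to 6.

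Against the mean of the CDK5, HRAS, MAP2K1, MAPK3 and NGFR knockdowns, 479 of 19775 genes passed, 2.42%, with 165 higher (0.834%) and 314 lower (1.59%) in the MAP2K2 knockdown and 29 at least 2-fold apart (0.147%). MAP2K2 was among them at -1.43 (limma, adjusted p = 0.0321). The ATF4, G2 and mitosis and G1/S lists held 0 calls in limma, with 3, 0 and 0 members at an unadjusted p under 0.05 and medians of -0.075, -0.058 and -0.16. DDIT4, for example, stood at 10.19, 8.3 and 7.61 in replicate 1, replicate 2 and replicates 3 to 6 of the MAP2K2 knockdown, and at 8.42, 7.98 and 8.23 in the HRAS knockdown and 7.73, 7.18 and 8.45 in the NGFR knockdown. Among the ERK readouts 3 were lower and 1 higher than in the other knockdowns. These list counts too include the 3 arrays of degraded RNA.

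Genes lower in the MAP2K2 knockdown than in the other knockdowns and than in the vector controls were led by ANXA1, CALB1, CXCL8, TENT5C and SCG2. ANXA1, annexin A1, had 4.85, 6.5 and 6.86 ± 0.24 (SD, n = 4 for replicates 3 to 6) in the MAP2K2 knockdown. It had 10.67, 10.95 and 10.79 in the MAPK3 knockdown and 10, 7.38 and 7.97 in the HRAS knockdown, while the MAP2K1 knockdown with 5.16, 7.91 and 7.87 came nearer. The CDK5 knockdown had 5.68 in replicate 2, below the MAP2K2 knockdown, and 7.64 in replicates 3 to 6. The fall of ANXA1 from the vector controls, -1.27, had the opposite sign in replicate 2 (0.62), and so did those of CALB1 (1.31) and SCG2 (1.25) there. ANXA1 differed by -1.85 from the 5 other knockdowns (limma, adjusted p = 0.000271), and the MAPK3 knockdown stood highest in each round. Replicate 2 of the MAPK3 knockdown and replicate 2 of the MAP2K1 knockdown are arrays of degraded RNA. CXCL8 stood at 6.25, 5.98 and 6.79 in the MAP2K2 knockdown, 6.32, 6.93 and 7.47 in the MAP2K1 knockdown, 9.89, 8.76 and 8.82 in the MAPK3 knockdown and 9.72, 8.14 and 8.33 in the HRAS knockdown. The CDK5 knockdown, with 5.95 in replicate 2 and 6.67 in replicates 3 to 6, was no higher than the MAP2K2 knockdown. CXCL8 differed by -1.32 (limma, adjusted p = 5.26e-05) and TENT5C, a poly(A) polymerase, by -1.3 (limma, adjusted p = 3.45e-06). SCG2, secretogranin, differed by -1.13, a call lost without knockdown replicate 1. It had 5.36 in replicate 2 and 5.99 in replicates 3 to 6 of the MAP2K2 knockdown, and the CDK5 knockdown was lower still, at 4.49 and 5.32.

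Some clustered histone genes were higher in the MAP2K2 knockdown. These genes, chosen after their values were seen, number 45 by symbol. The symbol rule also took the linker histone genes H1-7, H1-8 and H1-10, which lie outside the clusters and did not pass the test. Against the vector controls 15 rose and 30 did not pass the test, with a median of 0.15, while 8.6% of all genes rose. Among the 15 were 8 of the 13 H2B genes. Among the 30, H2AC6 stood at 2.21, 0.65 and -1.33 in the rounds and H2BC21 at 2.89, 0.93 and -1.32. Against the 5 other knockdowns 7 were higher with a median of 0.16, and against the MAP2K1 knockdown 5 were higher with a median of 0.19. Of all genes 0.834% and 0.172% were higher in these comparisons. H2BC12 had 11.35, 12.33, 10.17, 10.13, 10.15 and 10.11 in knockdown replicates 1 to 6, against 9.73, 8.99, 9.71, 9.68, 9.69 and 9.65 with the non-target hairpin and 9.09, 9.06, 9.39, 9.36, 9.37 and 9.49 with the empty vector. All knockdown arrays stood above all controls, by more in replicates 1 and 2 than in replicates 3 to 6. H2BC12 rose by 1.27 ± 0.24 (limma, adjusted p = 0.000108) and was, of the 24 genes with the largest changes, the 1 still called with non-transduced cells as control, at 1.89 (limma, adjusted p = 0.0197).

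The NGFR knockdown also had high levels. H2BC12 stood there at 11.12, 12.51 and 9.9 in replicate 1, replicate 2 and replicates 3 to 6, against 8.94, 10.12 and 9.42 in the MAP2K1 knockdown. Replicate 1 of the NGFR knockdown and replicate 2 of the MAP2K1 knockdown are arrays of degraded RNA. H1-2, a linker histone, stood at 10.91, 10.18 and 8.82 in the MAP2K2 knockdown and at 9.95, 10.09 and 8.79 in the NGFR knockdown. The MAP2K1 knockdown had 6.61, 7.54 and 8.38 and the non-target hairpin 7.42, 7.89 and 8.83, so in replicates 3 to 6 H1-2 did not stand above that control. The difference of H1-2 from the 5 other knockdowns was 1.28 (limma, adjusted p = 0.00448), and the call was lost without knockdown replicate 1. Those of H2BC12L (1.24) and H2BC9 (0.94) were lost without knockdown replicate 1 or 2. The probe sets of H2BC12L, H2BC5 and H2BC9 are of a type that can bind related transcripts, so these genes may share signal. H2AC17, an H2A gene, had 5.03, 4.88, 6.39, 6.57, 5.84 and 6.26 in the MAP2K2 knockdown, above the controls of each round at 3.85 to 5.01, and rose by 1.36 ± 0.15 (limma, adjusted p = 2.92e-08). In replicates 3 to 6 the MAP2K2 knockdown averaged 6.27 ± 0.31 and the NGFR knockdown 6.41 ± 0.24 for H2AC17 (SD, n = 4 each). The CDK5, MAP2K1, HRAS and MAPK3 knockdowns averaged 5.65, 5.32, 5.08 and 4.72.

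**Figure D4:**
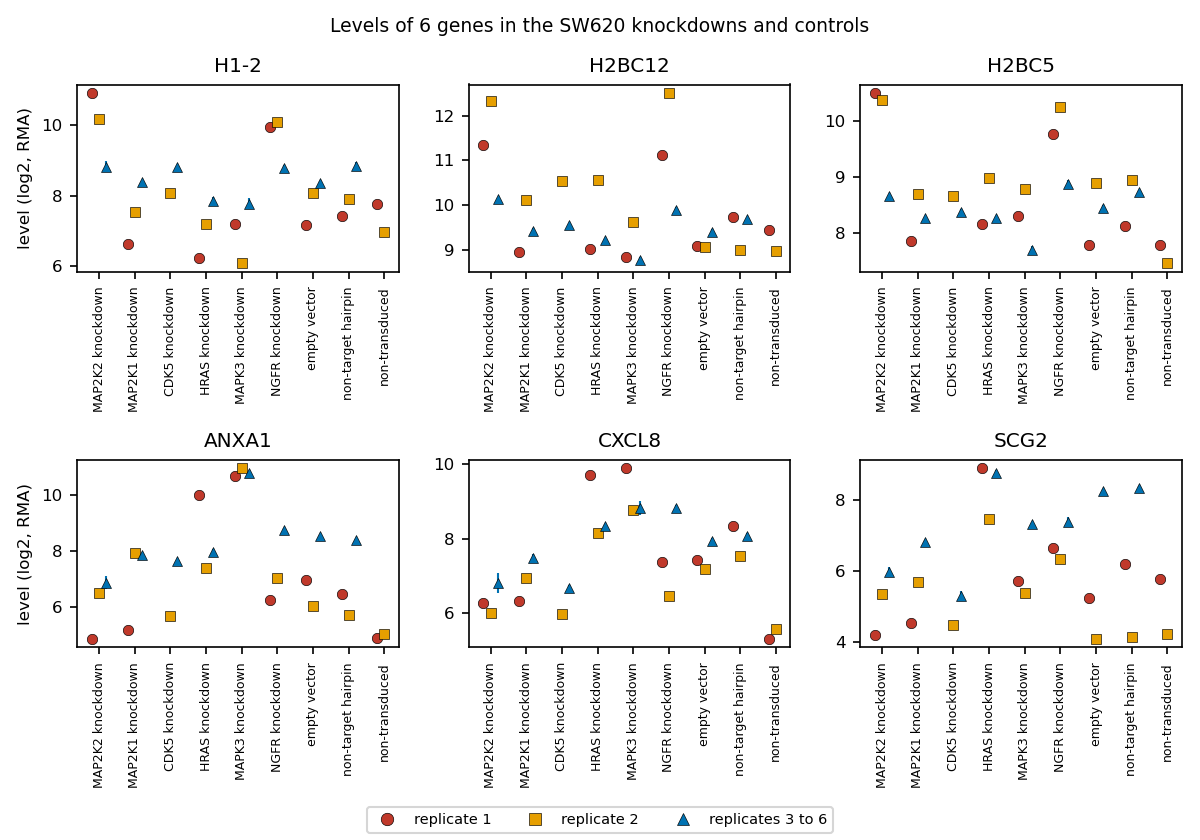
Level (log2, RMA) of 6 genes in each SW620 group, from the MAP2K2 knockdown on the left through the other knockdowns to the vector and non-transduced controls (y axes start at different levels), with 1 mark for replicate 1, 1 for replicate 2 and 1 for the mean of replicates 3 to 6 with its SD. For H1-2 and H2BC12 the MAP2K2 and NGFR knockdowns stand above the other groups in replicates 1 and 2 (10.91 and 9.95 for H1-2 in replicate 1), and for ANXA1 the MAPK3 knockdown stands highest, at 10.79 in replicates 3 to 6 against 6.86 in the MAP2K2 knockdown. Replicate 1 of the NGFR knockdown and replicate 2 of the MAP2K1 and MAPK3 knockdowns are arrays of degraded RNA.

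MAP2K2 was also lower in the SW480 knockdown. Of the 24 genes with the largest changes in SW620, 4 passed the test there, 2 of them with the same sign (TNC and DEF8). SYTL2 and ZNF519 fell in SW480 although they rose in SW620. Without the library labelled MAP2K2 knockdown replicate 1, 2 passed, TNC with the same sign and ZNF519 with the opposite sign. MAP2K2 changed by -1.85 ± 0.43 in SW620 and by -1.89 ± 0.33 in SW480 (limma, adjusted p = 3.1e-05), and the difference of 0.041 between the lines did not pass the test (limma, adjusted p = 0.97). Without that library MAP2K2 changed by -1.67 in SW480 (limma, adjusted p = 0.00101), and the line difference was -0.18 (limma, adjusted p = 0.858). In SW480 the knockdown differed from its vector controls in 1022 genes, 5.17%, with 410 higher (2.07%), 612 lower (3.09%) and 63 changed at least 2-fold (0.319%). Of these, 300 had been called in SW620 with the same sign and 64 with the opposite sign, and the 300 are 29.4% of the genes called in SW480 and 7.46% of the 4021 called in SW620. Without the library labelled replicate 1 the SW480 count was 591, or 2.99%, with 236 higher and 355 lower. Of these, 171 had the same sign in SW620 and 47 the opposite, the 171 being 28.9% of the SW480 calls and 4.25% of the SW620 calls. The effect differed between the lines in 2064 genes, 10.4%, of which 895 (4.53%) were higher and 1169 (5.91%) lower in SW620 and 335 (1.69%) differed at least 2-fold. Without the library 1907 genes differed, 9.64%, and 1620 of them were among the 2064. Without all 13 SW480 arrays whose SW620 genes averaged over 5, also chosen after seeing the data, 1868 differed.

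Genes of the ATF4 and mitotic lists were among them, fewer of the mitotic ones without the library labelled replicate 1. In the test of the difference, 19 of 24 ATF4 genes fell more in SW620 and 18 of 26 genes of G2 and mitosis rose more. The medians of these lists in SW480 were -0.021 and -0.0066, against -1.04 and 0.96 in SW620. Of the ERK readouts, 10 of 23 were lower in the difference, and their median in SW480 was 0.0026, against -0.55 in SW620. G1/S and DNA replication held 1 call among 26. Without the library, 19 of the ATF4 genes, 11 of the genes of G2 and mitosis, 12 of the ERK readouts and 1 of the G1/S genes were called in the same directions. The SW480 medians were then 0.027 for ATF4, 0.14 for G2 and mitosis and 0.027 for the ERK readouts.

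DDIT4 averaged 8.15 ± 1 in knockdown SW620 cells, against 11.53 ± 0.3 with the non-target hairpin and 11.99 ± 0.19 with the empty vector (SD, n = 6 each). In SW480 the knockdown averaged 8.09, against 8.27 and 8.54 in those controls, so the controls of SW480 were already near the level of the SW620 knockdown. INHBE averaged 5.16 ± 1 in knockdown SW620 cells, against 8.71 ± 0.7 with the non-target hairpin and 9.11 ± 1 with the empty vector. In SW480 it averaged 4.14, against 4.19 and 4.46. The effects differed by -3.29 for DDIT4 and by -3.57 for INHBE. Without the library labelled replicate 1, the SW480 knockdown averaged 8.06 ± 0.059 for DDIT4 and 3.93 ± 0.15 for INHBE (SD, n = 5), and the effects differed by -3.48 and -3.64.

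SYTL2, a synaptotagmin-like protein of vesicle transport, rose in SW620 and not in SW480. It had 4.48, 5.26, 6.96, 7.14, 6.85 and 7.11 in SW620 knockdown replicates 1 to 6, against 4.24 to 5.06 in the SW620 vector controls, and rose by 1.64 ± 0.19 (limma, adjusted p = 4.87e-08). Replicate 1, at 0.006 from its controls, did not share the rise. In SW480 it had 4.31, 5.58, 6.89, 6.85, 6.76 and 6.6, against 5.37, 5.07, 7.67, 7.46, 7.66 and 7.59 with the non-target hairpin and 5.07, 5.03, 8.08, 8.07, 8 and 8.04 with the empty vector, and fell by 0.76 (limma, adjusted p = 0.0218). The SW480 fall was not called without the library labelled replicate 1 (-0.65, limma, adjusted p = 0.114). The lines differed by 2.4, or by 2.29 without that library. ZNF519, a zinc finger protein, rose by 1.29 in SW620 and changed by -0.8 in SW480 (limma, adjusted p = 0.00127). Without the library it also changed by -0.8 in SW480 (limma, adjusted p = 0.00478). Its effects differed by 2.08, with and without the library. ZBED2, whose effects differed by 1.76, stood at 3.44 to 4.03 in the SW620 knockdown and at 3.32 to 3.97 in its controls, and in SW480 averaged 5.91 in the knockdown, against 7.6 with the non-target hairpin and 7.5 with the empty vector. It fell by 1.64 there. Without the library the SW480 knockdown averaged 6.2 ± 0.29 for ZBED2 (SD, n = 5), the fall was 1.59 and the effects differed by 1.71. TNC rose in both lines, by 1.34 in SW620 and by 2 in SW480, or 1.59 without the library. DEF8 rose by 1.18 in SW620, and its SW480 rise of 0.54 was not called without the library (0.46, limma, adjusted p = 0.128).

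**Figure D5:**
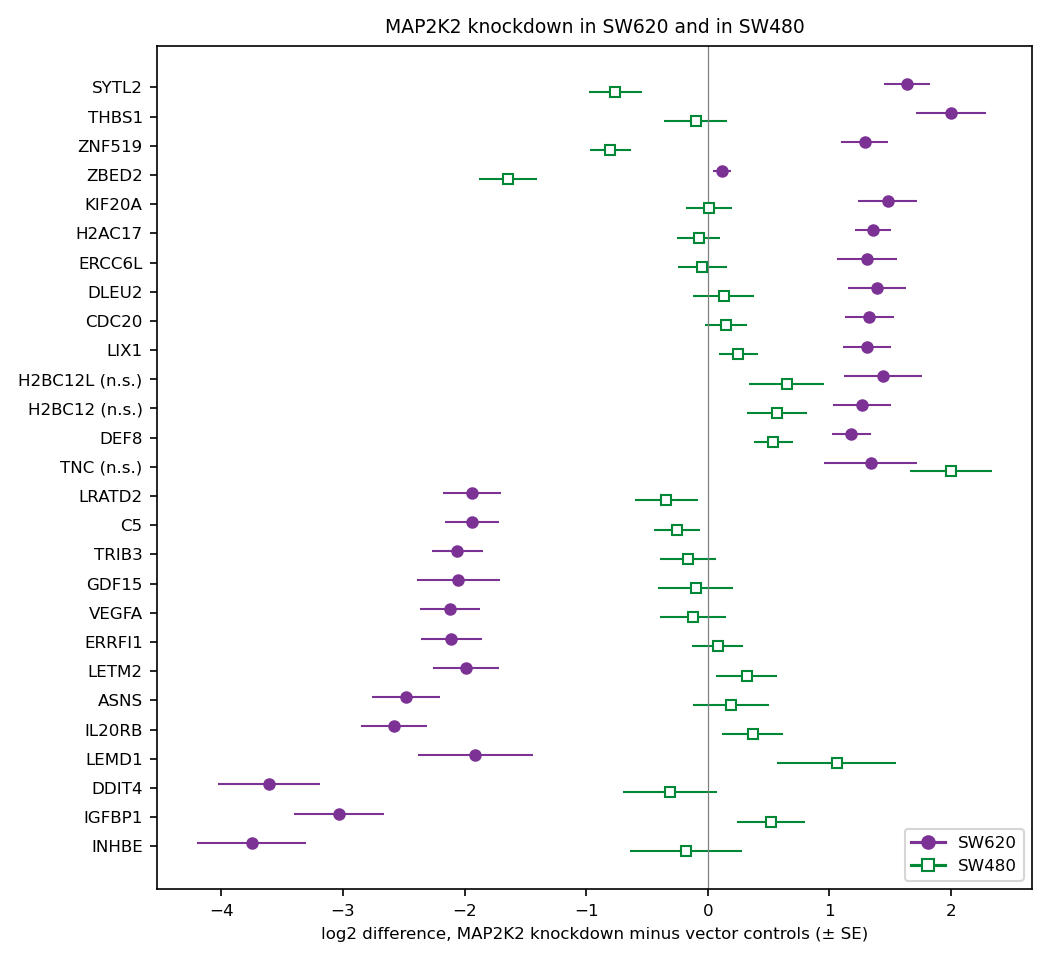
Log2 difference between the MAP2K2 knockdown and the vector controls, with its SE, in SW620 (filled) and SW480 (open), for the genes with the largest changes in SW620 and in the difference between lines; n.s. marks a gene whose difference between lines did not pass the test. SW480 values include the library labelled MAP2K2 knockdown replicate 1. DDIT4, INHBE and ASNS lie far below 0 in SW620 and near 0 in SW480, while TNC lies above 0 in both, at 1.34 and 2.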

How the data were processed

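The deposited values are log2 expression per probe set after RMA by the authors, per the labels, from 1 Affymetrix array per sample of total RNA; the RMA version is not given in the sources used here. The table holds 54675 probe sets, of which 41097 name 1 gene, 1801 several and 11777 none in GEO's platform annotation. Symbols were updated for 41043 and kept for 54. Each of 19775 genes was taken from its brightest probe set, where 10523 have several. Arrays give no counts, so their number limits the precision.

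A linear model per gene was fitted by limma 3.58.1 under R 4.3.3, its variances moderated by eBayes with the trend and robust options, over all 50 SW620 arrays with group and round as terms (38 residual degrees of freedom). The difference between lines was fitted over 101 arrays with round within line (77 residual degrees of freedom). P-values were adjusted over all genes by the method of Benjamini and Hochberg, and a gene was called at 0.05. The fits were tested on simulated data whose arrays varied independently around group and round means. That test cannot show how the calls fare when the difference of a group varies between rounds. Both vector controls were averaged with equal weight. Replicate numbers pair the samples only through the shared round: same-numbered deviations correlated at 0.66 to 0.97 in 18 pairs, but at -0.13 to 0.13 in the 12 pairs within replicates 3 to 6.

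The members and gene lists were chosen with earlier results of these data known. The genes with the largest changes are the 12 largest rises and 12 largest falls with 1 sign in all 3 rounds; for other comparisons the 5 or 4 largest each way were taken, and in each list the 4 members with the smallest p. Other list members and the histone genes were named after their values were seen. Some genes of the lists are not reported here. Promoter windows come from RefSeq (GRCh38.p14). Alternatives changed the round term, control, probe set rule, filter, normalization, averaging, arrays left out and replicate block. Figures used matplotlib 3.10.9 in Python 3.11.15.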

Additional observations from a re-analysis of the deposited data

Results flagged for a closer look

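In 13 of 25 genes (MAP2K2 and the 24 with the largest changes), 1 of the 6 knockdown arrays lay far from the other 5 by Dixon's gap test. The test used each array's level minus the mean vector control of its round. Its chance rate of about 5% of groups holds for independent values with a common spread. Here replicates 3 to 6 form a single round and share their controls, while replicates 1 and 2 are rounds of their own. The 13 genes therefore cannot be set against that rate. An array of replicate 1 or 2 stood apart in each case, while replicates 3 to 6 lay close together. Replicate 2 stood apart with the larger difference for KIF20A (2.92), TNC (2.62), CDC20 (2.4) and ERRFI1 (-3.77). It stood apart with a smaller one for IL20RB (-1.06) and C5 (-0.84). Replicate 1 stood apart, nearer to 0, for DDIT4 (-1.32), IGFBP1 (-1.27), ASNS (-1.67), TRIB3 (-0.81), GDF15 (-0.49), DLEU2 (0.44) and DEF8 (0.25).

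Among MAP2K2, the 24 genes with the largest changes and the genes with the largest line differences, the knockdown effect differed between the lines for 24, in limma's test of that difference. These 24 passed also without the library labelled MAP2K2 knockdown replicate 1 in SW480, which went against its line label. Of all 138 genes chosen by rule, 73 passed, and 10.4% of all genes tested did. The genes with the largest line differences were chosen because they passed this same test. The genes with the largest changes were chosen by their change in SW620, which is part of the tested difference. Neither count therefore measures how often the effect differs between the lines. The SW620 minus SW480 difference on the log2 scale was positive for SYTL2 (2.4), THBS1 (2.09), ZNF519 (2.08), ZBED2 (1.76), KIF20A (1.47), H2AC17 (1.44), ERCC6L (1.35), DLEU2 (1.26), CDC20 (1.17), LIX1 (1.06) and DEF8 (0.64). It was negative for INHBE (-3.57), IGFBP1 (-3.54), DDIT4 (-3.29), LEMD1 (-2.97), IL20RB (-2.95), ASNS (-2.67), LETM2 (-2.31), ERRFI1 (-2.19), VEGFA (-2), GDF15 (-1.95), TRIB3 (-1.9), C5 (-1.7) and LRATD2 (-1.6).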

How the results depend on the processing

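Counts of called genes are given here in the order knockdown against vector controls, against the MAP2K1 knockdown, against the 5 other knockdowns, difference between lines, and non-target hairpin against empty vector (main counts 4021, 142, 479, 2064 and 1). Without the round term they were 888, 2, 38, 254 and 0. With arrays averaged in pairs by name ending they were 518, 2, 12, 99 and 0, and MAP2K2 was -2.03 (limma, adjusted p = 0.0866). With replicates 3 to 6 averaged, or with replicates 1 and 2 only, limma called 0 in all 5, with 1458, 568, 557, 1107 and 90 or 722, 493, 350, 1092 and 79 at an unadjusted p under 0.05. MAP2K2 was then -2.21 (limma, adjusted p = 0.539) or -2.56 (limma, adjusted p = 1). With replicates 3 to 6 only they were 10904, 5166, 7034, 9374 and 2333. Only the groups compared gave 6397, 1099, 3836 and 971 against the vector controls, against the MAP2K1 knockdown, between lines and between vectors. Without the 3 arrays of degraded RNA, chosen after seeing the data, they were 6997, 642, 1613, 3379 and 15, and 47.5% (main 23.9%) of the second and 50.8% (main 34.4%) of the third were higher. With these left out and replicates 3 to 6 averaged they were 54, 2, 1, 1 and 0. The difference between lines was 994 with the non-target hairpin alone and 1359 without dim genes. Without the library labelled MAP2K2 knockdown SW480 replicate 1 it was 1907, and without the 13 SW480 arrays whose SW620 genes averaged over 5 it was 1868, both chosen after seeing the data. A second quantile normalization gave 90 for the second count. The last count was 2 under the mean of probe sets, the dim filter, second normalization and plain eBayes.

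Leaving out 1 replicate gave 2058 to 6748, 7 to 644, 137 to 1642, 687 to 4800 and 1 to 22, lowest without 1 of replicates 3 to 6 and highest without replicate 1 or 2, with MAP2K2 at -1.94 to -1.62. With the replicate number as a block the counts were 3676, 95, 415, 1771 and 1, and MAP2K2 was -1.85 (limma, adjusted p = 0.00302); the block ended 4 of 135 single-gene calls.

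With non-transduced cells as control, chosen after seeing the data, 80 genes were called and MAP2K2 was -2.18 (limma, adjusted p = 0.186). The sign then reversed for ERRFI1 (0.39), SOS2 (0.25), IER3 (0.047), DUSP16 (0.086), DUSP6 (0.73), EMP1 (0.67), PLAU (0.044), EGR3 (0.74), KLF4 (0.69), HBEGF (0.3), TGFA (0.37), CDKN1A (0.16), CDK6 (-0.14), ORC1 (-0.075), MCM3 (-0.16), CHAF1A (-0.016), DDIT3 (0.027), ERN1 (0.062), SLC2A1 (0.12), P4HA1 (0.33), ACAT2 (-0.19), LSS (-0.46), CXCL3 (0.13), CCL20 (0.17), CXCL2 (0.18), PROX1 (-0.17), ITGB1 (0.1), CDH17 (0.18), TNFRSF10B (0.38), MCL1 (0.13), ULK2 (0.00092), CTSB (0.34), WIPI1 (0.35) and BET1 (0.12). With replicates 1 and 2 only it reversed for MAP3K8 (0.09), DUSP16 (0.29), CDKN1A (0.31), IFIH1 (0.067), CCL20 (0.077), CXCL6 (0.28), CD44 (0.11), CDH1 (0.18), MCL1 (0.17), FAS (0.091) and the line difference of LEMD1 (1.43), and under the mean of probe sets for AGO3 (-0.11). The cause was not tested.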
